A study of Mus musculus with 4 samples.

Results

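The circadian clock genes examined here were *Clock*, *Arntl*, *Npas2*, *Per1*, *Per2*, *Per3*, *Cry1*, *Nr1d1*, *Nr1d2* and *Dbp*. They are 10 of the 22479 gene names in a table of mammary RNA levels, were chosen by name, and each occupied a single row of that table with no other gene name in it. RNA-Seq was performed on mammary tissue of virgin mice, 2 wild-type (miR-21+/+) and 2 lacking the microRNA gene (miR-21−/−). All of the mice carried the same mixed background, labelled 129SV::FVB/N::C57BL/6, and were 2 months old. The mutation is given for the whole animal and not for one cell type of the gland. The authors deposited a single FPKM value (RNA fragments counted on a locus, scaled to its exon length and to the size of the library) for each genotype, which combines its 2 mice. The spread between mice therefore cannot be seen, the genotypes could not be tested against each other, and the depth behind each value is unknown. The hour at which tissue was taken and the lighting schedule were not given in the sources used here.

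The mammalian clock is a feedback loop of transcription. CLOCK or its relative NPAS2 pairs with BMAL1, the product of *Arntl*, and activates genes that carry E-boxes, among them the *Per* and *Cry* genes, *Nr1d1*, *Nr1d2* and *Dbp*. PER and CRY proteins then block the activators, while the receptors REV-ERBα (*Nr1d1*) and REV-ERBβ (*Nr1d2*) repress *Arntl* and *Npas2*. DBP drives further output genes through D-boxes. In most mouse tissues, mammary gland included, the transcripts cycle daily, with *Arntl* and *Npas2* high at about the time when *Nr1d1* and *Dbp* are low, so the level of any of these genes depends on the hour at which tissue is taken.

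RefSeq promoters (250 bases before to 50 bases after a transcript start, build GRCm38.p6) were searched on both strands for motifs of the loop. Binding was not tested, so a match shows only that the letters are there. Promoters of 9 of the 10 genes were matched, 13 in all, and *Per2* was not matched. The motifs were the E-box CACGTG, the E′-box AACGTG, the D-box TTATGTAA or TTACGTAA, and AGGTCA, the half-site bound by REV-ERB and ROR receptors. None of the matches overlapped another. An E-box was found for *Per1* and *Cry1*, against 7.15% of all 32851 promoters. The 300 bases of *Per1* (chr11:69098699-69098998, plus strand) and *Cry1* (chr10:85185005-85185304, minus strand) are printed because both genes carry an E-box here while their deposited levels differed between the genotypes in opposite directions, which for *Cry1* turned with equal sums over all loci. *Ciart*, a repressor of the same loop that is not among the 10 genes, is printed beside them (chr3:95882179-95882478, minus strand) for its 3 E-boxes. Capitals mark the matches.
Per1: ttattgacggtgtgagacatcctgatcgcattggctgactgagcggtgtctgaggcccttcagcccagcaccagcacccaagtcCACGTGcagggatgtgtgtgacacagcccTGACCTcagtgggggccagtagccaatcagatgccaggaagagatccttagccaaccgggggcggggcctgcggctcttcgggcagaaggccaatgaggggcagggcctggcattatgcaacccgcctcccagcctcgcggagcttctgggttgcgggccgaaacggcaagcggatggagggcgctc
Cry1: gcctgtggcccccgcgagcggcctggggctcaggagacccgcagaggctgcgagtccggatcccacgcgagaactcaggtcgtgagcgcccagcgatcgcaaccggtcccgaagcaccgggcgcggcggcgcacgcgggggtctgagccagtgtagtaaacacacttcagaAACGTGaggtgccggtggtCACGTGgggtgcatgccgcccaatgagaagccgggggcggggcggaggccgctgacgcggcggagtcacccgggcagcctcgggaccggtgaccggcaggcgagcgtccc
Ciart: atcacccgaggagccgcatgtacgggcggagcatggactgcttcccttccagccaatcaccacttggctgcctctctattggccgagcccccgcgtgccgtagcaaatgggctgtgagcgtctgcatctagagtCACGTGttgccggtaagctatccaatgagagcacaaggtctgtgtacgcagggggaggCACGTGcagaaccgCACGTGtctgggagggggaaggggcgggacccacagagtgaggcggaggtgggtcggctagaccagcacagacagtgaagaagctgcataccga

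The other motif matches are shown as short windows, again with the match in capitals. *Per3* held both of the D-boxes found, at positions −205 and −158 from its start, against 1.06% of all promoters with a D-box. An E′-box (4.68% of all promoters) lay at −28 in *Nr1d1* and at −79 in *Cry1*. The half-site AGGTCA, present in 16.3% of all promoters, was found in *Nr1d2* at −77, in *Arntl* at position 32 after start 2 of its listed starts, in *Clock* at −119 of start 3 and in *Per1* at −137. No match was found in these windows for *Npas2* and *Dbp*, which says only that these letters are not in them.
Per3 at −205: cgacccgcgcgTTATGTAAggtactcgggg
Per3 at −158: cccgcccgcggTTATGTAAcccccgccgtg
Nr1d1 at −28: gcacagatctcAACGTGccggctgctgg
Nr1d2 at −77: attggaagaagAGGTCAggaccgctcgt
Arntl at 32: aggcagaaagtAGGTCAgggacggaggt

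**Figure D1:**
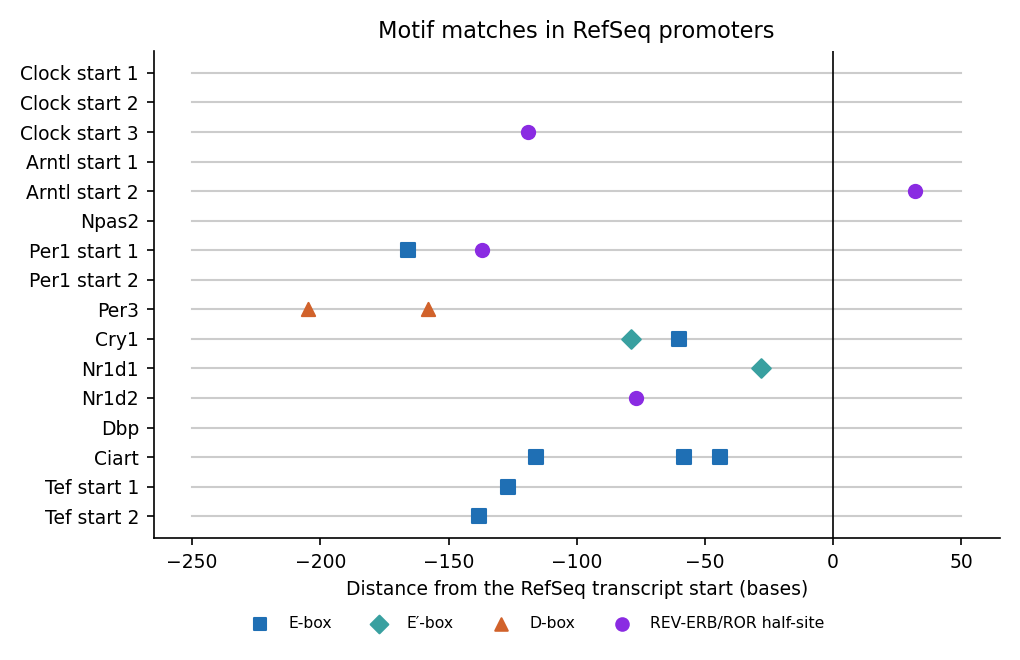
Position of motif matches along RefSeq promoters, with the distance from the transcript start in bases on the x axis and a line for each promoter of the clock genes, *Ciart* and *Tef*. Squares are E-boxes, diamonds E′-boxes, triangles D-boxes and circles REV-ERB/ROR half-sites. E-boxes appear in *Per1*, *Cry1*, *Ciart* and *Tef*, and both D-boxes in *Per3*.

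The mature sequence of miR-21 bears on whether a clock transcript could pair with it. Its seed, bases 2 to 8, is in capitals in the RefSeq sequence, and a transcript that pairs with the whole seed reads ATAAGCT.
miR-21a-5p: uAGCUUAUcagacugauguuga
Taking for each gene its longest 3′ UTR in GENCODE (mm9, the build of the table), *Per2* was the only one of the 10 clock genes with such a match. Over all genes above 1 FPKM that have a 3′ UTR there, 909 of 13029 (6.98%) had one. The *Per2* match lies on chromosome 1 from 93312734 to 93312740, on the minus strand, beginning 1708 bases after the stop codon in a 3′ UTR of 1887 nt. Among 8 related clock genes, *Tef*, *Hlf*, *Bhlhe40* and *Bhlhe41* held a match each, and that of *Bhlhe41* was followed by an A, as in an 8mer site. The deposited values of these genes went both ways, with log2 ratios, miR-21−/− over miR-21+/+, of 0.36 for *Per2* and 0.39 for *Bhlhe41* but −0.20 for *Tef*, −0.18 for *Bhlhe40* and −0.14 for *Hlf*. With equal sums over all loci all 5 ratios were below 0. The 5 windows are shown with the seed match in capitals.
Per2: ttttaatgtaaATAAGCTctcagagtttg
Bhlhe41: agtatgtaaagATAAGCTagaaactatct
Tef: aaagtgttcacATAAGCTtggctcctctg
Bhlhe40: tacttaataaaATAAGCTtttttcctgtg
Hlf: tgatcaagaccATAAGCTcttgtttctgt

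In mm9 the 10 genes are spread over several chromosomes. The activator genes lie at chr5:76639992-76733817 (*Clock*, minus strand), chr7:120350979-120457636 (*Arntl*, plus) and chr1:39250576-39420079 (*Npas2*, plus). *Per1* lies at chr11:68908719-68923462 (plus), *Per2* at chr1:93312561-93355907 (minus), *Per3* at chr4:150377761-150418774 (minus) and *Cry1* at chr10:84594447-84647799 (minus). The E-box targets *Nr1d1*, *Nr1d2* and *Dbp* lie at chr11:98629246-98636647 (minus), chr14:19036568-19071641 (minus) and chr7:52960458-52965525 (plus). The table gives a value per gene, so isoforms were not separated.

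Of the 10 clock genes, 4 were lower in miR-21−/− than in miR-21+/+ glands by at least 1.2-fold (*Per1*, *Nr1d1*, *Dbp* and *Npas2*) and 3 were higher by at least 1.2-fold (*Arntl*, *Cry1* and *Per2*). *Clock*, *Per3* and *Nr1d2* differed by less. None of the 10 reached the 2-fold limit that the study used. The median log2 ratio, miR-21−/− over miR-21+/+, was −0.09, beside −0.03 for all 9651 named loci above 5 FPKM in at least one genotype.

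These counts have to be read against the same counts over all genes of like abundance. All of the clock genes except *Arntl*, *Npas2* and *Cry1* exceeded the study's minimum of 5 FPKM, and these 7 did so in both genotypes. Of these 7, 3 were lower by 1.2-fold or more, against 14.5% of the 9651 loci, and 1 was higher, against 10.5%. *Arntl*, *Npas2* and *Cry1* lay between 1 and 5 FPKM in both genotypes. Their background was 3638 loci whose higher value was above 1 and at most 5 FPKM, while the other could be under 1 FPKM. These are the loci meant below by 1 to 5 FPKM or between 1 and 5 FPKM. Of them, 25.5% were lower by 1.2-fold and 20.7% were higher, and of the 3 genes 1 was lower and 2 were higher. Differences of this size were thus common at low abundance. At 2-fold the shares were 1.42% lower and 1.25% higher above 5 FPKM, and 5.33% lower and 4.07% higher between 1 and 5 FPKM. The authors' table marks *Per2* and *Clock* with the status FAIL, as it does 10.4% of the loci above 5 FPKM, meaning that its own comparison could not be completed for them. Without *Per2* and *Clock*, 4 genes were lower and 2 higher.

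The direction of some clock genes depended on how the 2 columns are scaled. Summed over all loci, the wild-type column held 759295 FPKM and the mutant column 1175600 FPKM. Over named loci alone the order was reversed, with 380567 FPKM for the wild type and 355385 FPKM for the mutant. The higher mutant total therefore came from the 8023 loci without a gene name, to which no clock gene belongs. With both columns scaled to equal sums over all loci, every log2 ratio moved by −0.63, after which 8 of the 10 clock genes were lower by 1.2-fold and 0 were higher, as were 92.7% and 1.78% of the loci above 5 FPKM. *Per2* and *Cry1* then had ratios of −0.27 and −0.13 while *Arntl* was at 0.02. Of the related genes described below, *Bhlhe41* (−0.24), *Tspan4* (−0.34) and *Cdkn1a* (−0.31) turned likewise. Relative to that shift no gene changed its place, and all values that follow are as deposited unless another scaling is named. Scaled to equal sums over named loci, every log2 ratio moved by 0.10, and each of the 10 clock genes lay on the same side of 0 as in the deposited values. Then 3 were lower by 1.2-fold, since *Dbp* was at −0.22, and 3 higher, beside 9.44% and 16.4% of the loci, and the median of the 10 was 0.01.

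**Figure D2:**
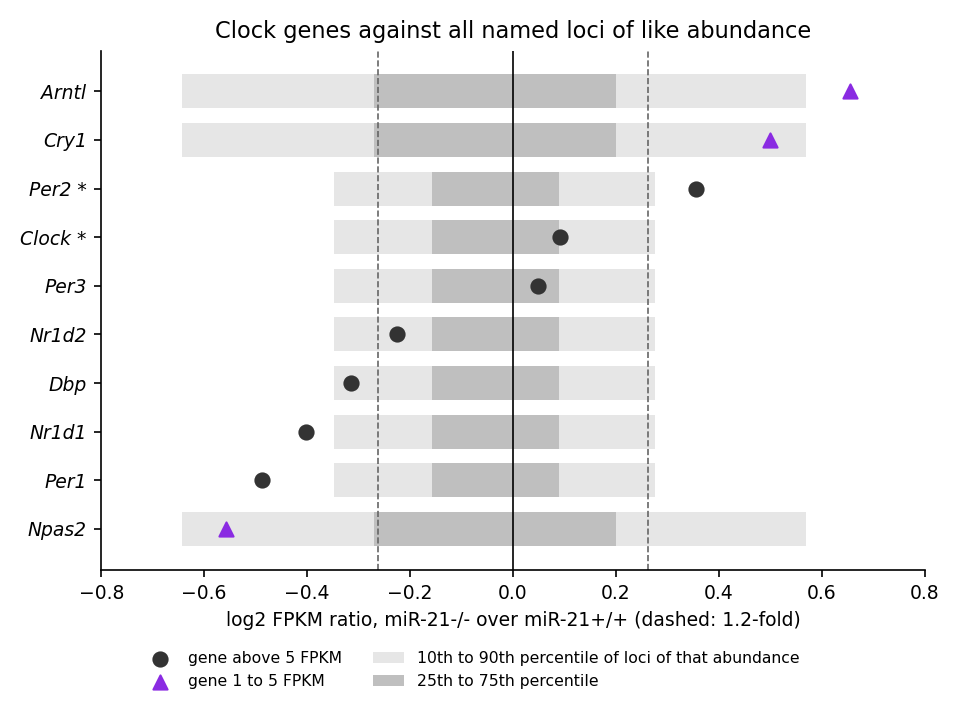
Log2 ratio of FPKM, miR-21−/− over miR-21+/+, on the x axis for each clock gene (circles, above 5 FPKM; triangles, 1 to 5 FPKM), over the 25th to 75th (dark bars) and 10th to 90th percentiles (light bars) of all named loci of that abundance. Dashed lines are at 1.2-fold and asterisks mark the status FAIL. *Per1* and *Nr1d1* lie below and *Arntl* and *Per2* above the light bars.

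The genes of the activating arm did not move as a group. *Arntl*, whose product BMAL1 is the partner that every activating dimer needs, was at 2.67 FPKM in miR-21+/+ and 4.20 FPKM in miR-21−/− glands. It was 1.57-fold higher in the mutants, a log2 ratio of 0.66, and 8.16% of the loci between 1 and 5 FPKM had a higher ratio. *Npas2*, the alternative partner of BMAL1, was the least abundant of the 10 genes, at 1.75 FPKM in miR-21+/+ and 1.19 FPKM in miR-21−/− glands. Its log2 ratio was −0.56, and 12.1% of the loci between 1 and 5 FPKM had a lower one. *Clock*, which encodes the usual partner, was at 8.72 and 9.29 FPKM in miR-21+/+ and miR-21−/− glands, a log2 ratio of 0.09. *Arntl* and *Npas2*, both of them targets of REV-ERB repression, thus differed in opposite directions. The fourth gene of this kind, *Arntl2*, a relative of *Arntl*, was at 6.19 and 6.18 FPKM.

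The period genes also differed in direction. *Per1*, which encodes a repressor of the loop and also responds quickly to hormones such as glucocorticoids, was at 31.9 FPKM in miR-21+/+ and 22.7 FPKM in miR-21−/− glands. It was 1.40-fold lower in the mutants, a log2 ratio of −0.49, and 5.82% of the 9651 loci had a lower one. *Per2*, encoding the closest relative of PER1 in the loop, was at 14.6 FPKM in miR-21+/+ and 18.6 FPKM in miR-21−/− glands. Its log2 ratio was 0.36, 7.51% of the loci had a higher one, and its row has the status FAIL. *Per3*, whose product plays a lesser part in the loop, was at 16.1 and 16.6 FPKM, a log2 ratio of 0.05. The *Per1* level was 2.19 times that of *Per2* in miR-21+/+ and 1.22 times in miR-21−/− glands.

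*Cry1* encodes the strongest repressor of the activating dimer and is transcribed later in the day than most E-box genes. It was at 3.40 FPKM in miR-21+/+ and 4.81 FPKM in miR-21−/− glands, 1.41-fold higher, a log2 ratio of 0.50, with 11.8% of the loci between 1 and 5 FPKM above it. Its relative *Cry2* was more abundant, at 12.8 and 13.4 FPKM, a log2 ratio of 0.07. Of the 5 period and cryptochrome genes, 1 was therefore lower by 1.2-fold and 2 were higher, with a median of 0.07. Among all loci above 5 FPKM 14.5% were lower and 10.5% higher, and from 1 to 5 FPKM, where *Cry1* lay, 25.5% and 20.7%.

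The REV-ERB genes and *Dbp*, which are direct E-box targets, were the most abundant of the 10, and the value of each was lower in miR-21−/− glands. *Nr1d1* was at 66.3 FPKM in miR-21+/+ and 50.2 FPKM in miR-21−/− glands, 1.32-fold lower, a log2 ratio of −0.40, with 8.09% of the 9651 loci below it. *Nr1d2* was at 37.4 and 32.0 FPKM, a log2 ratio of −0.22, which is just inside the 1.2-fold limit. *Dbp* was at 49.3 and 39.6 FPKM, 1.24-fold lower, a log2 ratio of −0.31, and it is the gene just outside that limit. ROR receptors activate through the same DNA elements that REV-ERB represses. *Rora*, which encodes such a receptor, was at 6.36 and 5.02 FPKM, a log2 ratio of −0.34. *Rorb* was under 1 FPKM in both genotypes.

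**Figure D3:**
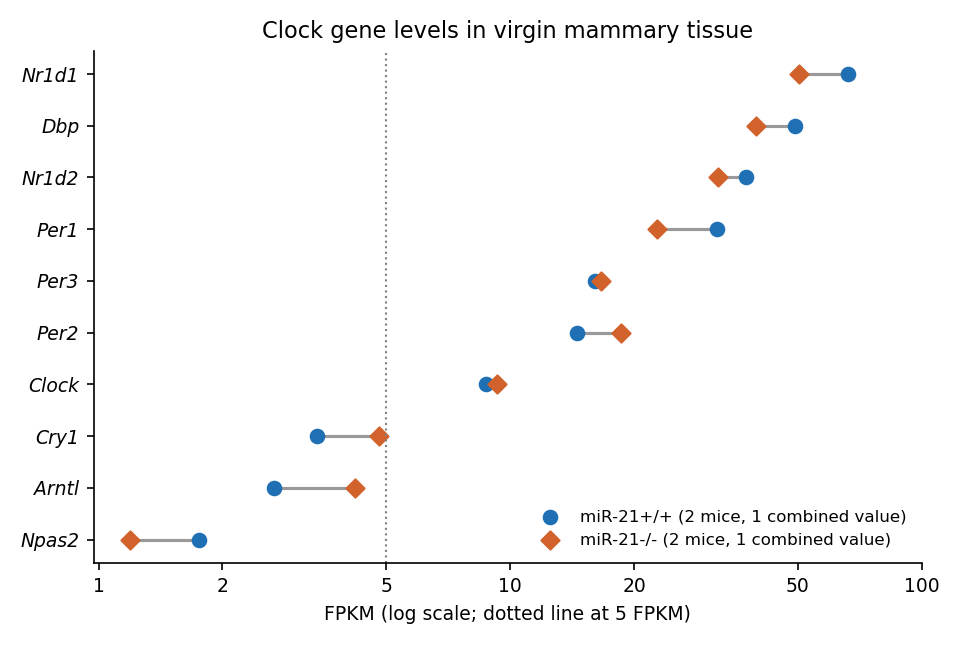
FPKM of each clock gene on a log axis in miR-21+/+ (circles) and miR-21−/− glands (diamonds), each symbol being the authors' single value for 2 mice, with a line joining the genotypes. *Nr1d1*, *Dbp*, *Nr1d2* and *Per1* sit at the top in both genotypes with the miR-21−/− value to the left. *Cry1*, *Arntl* and *Npas2* lie under the dotted line at 5 FPKM.

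The order of the levels was nearly the same in both genotypes. From high to low it ran *Nr1d1*, *Dbp*, *Nr1d2*, *Per1*, *Per3*, *Per2*, *Clock*, *Cry1*, *Arntl* and *Npas2* in miR-21+/+ glands, and *Per2* and *Per3* exchanged places in miR-21−/− glands. Whether neighbours in this order differ beyond the spread between mice could not be determined. The range from the top to *Arntl* was narrower in the mutants. The *Nr1d1* level was 24.9 times that of *Arntl* in miR-21+/+ and 12.0 times in miR-21−/− glands, and for *Dbp* over *Arntl* these ratios were 18.5 and 9.44. Such ratios between genes within a genotype do not depend on how the 2 columns were scaled. The choice of these pairs was made after looking at the values.

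The arms of the loop were set against each other, leaving out *Cry1*, which is known to carry REV-ERB/ROR elements beside its E-boxes. The windows searched here held no AGGTCA for *Cry1* but did for *Per1* and *Nr1d2*, which were kept. They held both an E-box and an E′-box for *Cry1*. Of the genes kept as E-box-driven, only *Per1* had an E-box and only *Nr1d1* an E′-box there, and *Per2* had no window. That side was set by what is known of the genes and not by the search. The mean log2 ratio of *Clock*, *Arntl* and *Npas2* was 0.06 (range −0.56 to 0.66), and that of the 6 E-box-driven genes *Per1*, *Per2*, *Per3*, *Nr1d1*, *Nr1d2* and *Dbp* was −0.17 (range −0.49 to 0.36). The difference of 0.23 does not depend on scaling either. It rested on *Arntl*, since it was −0.06 without that gene, and it was 0.54 without *Npas2*. With *Cry1* counted among the E-box-driven genes, an alternative added after seeing the data, it was 0.14.

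The other genes of the loop were examined by role, over those above 1 FPKM. Among the PAR bZIP factors, which bind D-boxes, *Tef* was at 46.5 and 40.4 FPKM (log2 ratio −0.20, status FAIL) and *Hlf* at 8.18 and 7.45 FPKM (−0.14). *Dbp*, *Tef* and *Hlf* were thus all lower in value, though only *Dbp* passed 1.2-fold. *Nfil3*, which competes with them at D-boxes as a repressor, was at 3.34 FPKM in miR-21+/+ and 5.51 FPKM in miR-21−/− glands. Its log2 ratio was 0.72, although it exceeded 5 FPKM in miR-21−/− glands only. The *Dbp* level was 14.8 times that of *Nfil3* in miR-21+/+ and 7.19 times in miR-21−/− glands.

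The largest difference among the genes of the loop was that of *Ciart*, listed in the table under its older name *Gm129*. This repressor of CLOCK and BMAL1, whose promoter carries the 3 E-boxes printed above, was at 3.45 FPKM in miR-21+/+ and 1.55 FPKM in miR-21−/− glands. It was 2.22-fold lower in the mutants, a log2 ratio of −1.15, and 4.29% of the loci between 1 and 5 FPKM had a lower one. With 1 FPKM added to both values, the log2 ratio of *Ciart* was −0.80. *Bhlhe41* (DEC2), an E-box repressor, was at 24.6 and 32.3 FPKM, a log2 ratio of 0.39, with the status FAIL. Its relative *Bhlhe40* (DEC1) was at 20.1 and 17.7 FPKM, a log2 ratio of −0.18.

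Genes that act on clock proteins rather than on clock promoters were compared next. Of 6 kinase and ubiquitin ligase genes above 1 FPKM, 0 passed 1.2-fold in either direction, and their log2 ratios ran from −0.15 for *Fbxw11* to 0.21 for *Csnk1e*, with a median of 0.05. Of all loci above 5 FPKM, 74.9% likewise passed neither limit, so this count is near the background. With equal sums over named loci *Csnk1e*, a kinase gene whose row has the status FAIL, was at 0.31 and past 1.2-fold, and with equal sums over all loci all 6 were lower. *Csnk1d*, which encodes a kinase that phosphorylates PER proteins, was at 38.4 and 39.5 FPKM, and *Btrc*, which encodes a ligase subunit that marks PER proteins for degradation, at 7.65 and 7.19 FPKM.

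**Figure D4:**
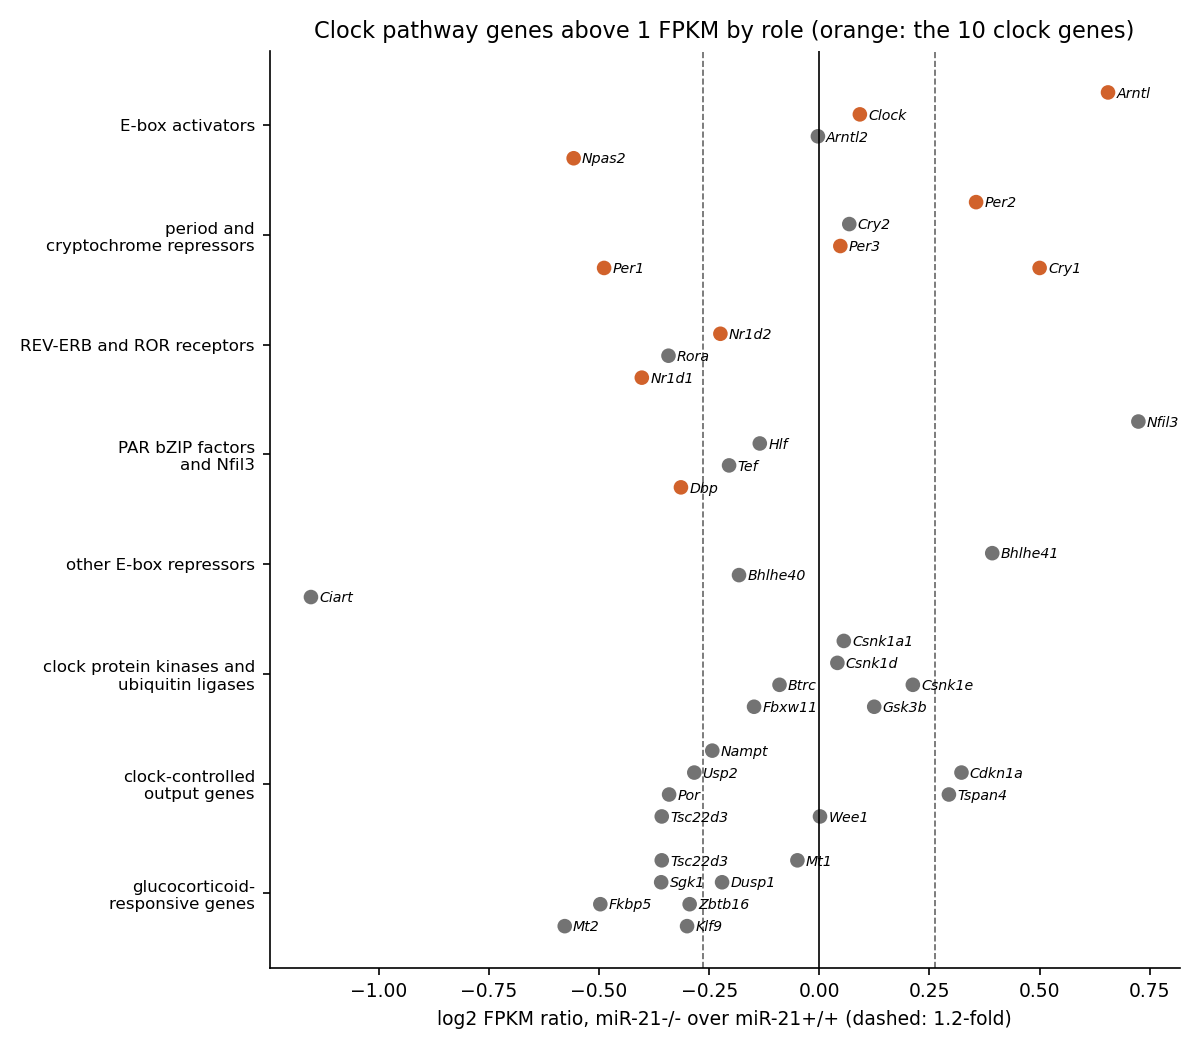
Log2 ratio of FPKM, miR-21−/− over miR-21+/+, on the x axis for the genes of the clock pathway above 1 FPKM, grouped by role on the y axis, with the 10 clock genes in orange and other genes in grey. Height within a group only separates the points, and dashed lines are at 1.2-fold. The kinase and ligase genes all lie between the dashed lines, *Ciart* lies farthest to the left at −1.15 and *Nfil3* farthest to the right at 0.72.

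Genes known to be controlled by the clock in other tissues showed both directions. Of 7 above 1 FPKM, 3 were lower by 1.2-fold (*Por*, *Tsc22d3* and *Usp2*) and 2 were higher (*Tspan4* and *Cdkn1a*), with a median log2 ratio of −0.24, beside 14.5% lower and 10.5% higher among the loci above 5 FPKM. With equal sums over named loci 0 of the 7 were lower and the same 2 were higher, and with equal sums over all loci all 7 were lower. *Usp2*, which encodes a deubiquitinase, was at 5.68 and 4.67 FPKM. *Wee1*, a cell cycle kinase gene with E-boxes, was at 5.51 and 5.52 FPKM, and *Nampt*, which encodes an enzyme of NAD synthesis, was at 26.4 and 22.3 FPKM.

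Because *Per1* is also a glucocorticoid-responsive gene, 8 other genes that respond to glucocorticoids were compared. Of these 8, all above 5 FPKM, 6 were lower by 1.2-fold and 0 higher, beside 14.5% and 10.5% of the loci, with log2 ratios from −0.58 to −0.05 and a median of −0.33. The count depended on scaling, since with equal sums over named loci 2 of the 8 were lower (*Mt2* and *Fkbp5*), beside 9.44% of the loci, and with equal sums over all loci all 8 were, beside 92.7%. *Fkbp5*, which encodes a chaperone of the glucocorticoid receptor, was at 14.1 and 9.98 FPKM (−0.50), close to the ratio of *Per1*. *Tsc22d3*, which encodes the glucocorticoid-induced protein GILZ and is also counted among the clock-controlled genes, was at 74.3 and 58.0 FPKM (−0.36). *Sgk1* was at 43.7 and 34.0 FPKM (−0.36), *Mt2* at 41.1 and 27.5 FPKM (−0.58) and *Mt1* at 66.3 and 64.0 FPKM (−0.05). Hormone levels were not analysed here.

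Some of the clock genes share exonic sequence with neighbours on the other strand, and the library kit used does not retain the strand. Exons of *Dbp* and *Sphk2* overlap by 491 bases, which is 16.7% of the annotated exon bases of *Dbp*. *Sphk2* was at 4.33 and 5.86 FPKM, a log2 ratio of 0.44, opposite in direction to that of *Dbp*. *Nr1d1* shares 263 bases with *Thra*, 8.42% of its exon bases, and *Thra* was at 31.8 and 31.3 FPKM. Reads from the shared bases cannot be told apart, so part of each *Dbp* and *Nr1d1* value is uncertain. For the other 8 genes no exonic overlap was annotated.

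Markers of several cell types differed between the genotypes as well. The gland was recognizable in both, with luminal keratin and adipocyte genes abundant, and no marker found in the table was at 0 in either genotype. All 5 B cell markers were lower in miR-21−/− glands, with a summed level of 99.4 FPKM in miR-21+/+ and 52.9 FPKM in miR-21−/−, as were all 5 T cell markers found (28.5 and 6.22 FPKM) and all 5 brown adipocyte markers (224 and 107 FPKM). Of 6 white adipocyte markers, 4 were lower and 1 was higher (17570 and 13235 FPKM). All 6 skeletal muscle markers (1023 and 1690 FPKM), all 5 basal epithelial markers (87.8 and 156 FPKM) and 4 of 6 luminal markers (609 and 815 FPKM) were higher. By 1.2-fold or more, 14.5% of the loci above 5 FPKM were lower and 10.5% higher, and 25.5% and 20.7% from 1 to 5 FPKM. With equal sums over all loci, the B cell, T cell and brown adipocyte counts were the same, while 2 muscle, 1 basal and 0 luminal markers were higher and 3 luminal markers were lower. Of the loci above 5 FPKM, 92.7% were then lower and 1.78% higher. As deposited, of the fibroblast markers 1 of 5 was lower (2957 and 2734 FPKM), and of the 5 endothelial markers 0 passed 1.2-fold (134 and 139 FPKM). The summed level of the 10 clock genes was 232 and 199 FPKM. In such bulk tissue fewer cells of a type and less RNA per cell cannot be told apart, and the part of these shifts in the clock gene values was not tested. The row that merges *Mir21* with its host gene *Vmp1* was at 42.5 and 68.2 FPKM, and since poly(A) RNA does not hold the mature microRNA it does not check the genotype labels.

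**Figure D5:**
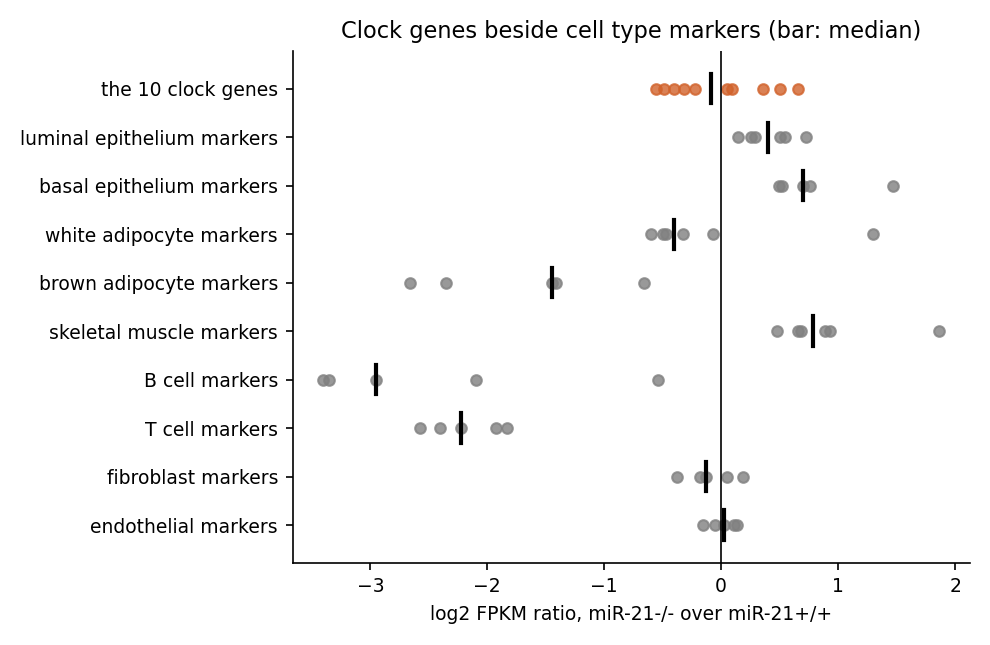
Log2 ratio of FPKM, miR-21−/− over miR-21+/+, on the x axis for the 10 clock genes (orange) and for cell type markers above 1 FPKM (grey), with a bar at the median of each list. The median of the clock genes is −0.09, while B cell, T cell and brown adipocyte medians lie at −2.96, −2.22 and −1.44 and the muscle median at 0.79.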

How the data were processed

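Poly(A) RNA of virgin mammary tissue from 2 miR-21+/+ and 2 miR-21−/− mice was sequenced as single-end reads, which the authors aligned to mm9 with TopHat. Levels were estimated with Cufflinks, and the authors deposited 1 FPKM value per locus and genotype that combines both mice. Versions, annotation and normalization options were not given in the sources used here. The table also holds the authors' own comparison (fold changes, test statistics, p-values and q-values), which was not used. Its status column served only to mark loci.

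Of 30506 loci, 22483 carry a gene name. For a name with several rows the row with the highest mean FPKM was kept. Plain log2 ratios were computed without a pseudocount and counted at 1.2-fold and at the study's 2-fold. With 1 value per genotype nothing was tested, and no difference has a replicate check. Members, lists and limits were chosen with earlier results of these data known. Genes named are the 10 clock genes and genes of fixed pathway lists, with overlapping neighbours. A few genes of these lists are not reported here. *Ciart* was matched through RefSeq synonyms, and *Trac* was not matched. Table coordinates match mm9, while RefSeq promoters are on GRCm38.p6 and were not converted. The alternatives tried were scalings, pseudocounts, fold limits, FPKM minimums, row choice and status. The calculations, tested on simulated data, used Python 3.11.15, numpy 2.4.6 and pandas 2.3.3, with figures from matplotlib 3.10.9.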

Additional observations from a re-analysis of the deposited data

How the results depend on the processing

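No paired analysis was possible because each genotype has only 1 deposited value, and leaving out each mouse was not run for the same reason. Depth is unknown, also for *Npas2*, *Arntl* and *Cry1* at under 5 FPKM. Summed rows, a pseudocount of 0.1 or 1 FPKM, centring on the median of all loci, scaling to named sums and a 1.1-fold limit kept the counts of lower and higher clock genes within 1.5 times 4 and 3. Some ratios of scarce genes did move. With a pseudocount of 1 FPKM they were 0.50 for *Arntl*, −0.33 for *Npas2*, 0.59 for *Nfil3* and −0.80 for *Ciart*, which was then inside 2-fold. At 1.5-fold they were 0 and 1, at 2-fold 0 and 0, which follows from the limits. With equal sums over all loci they were 8 and 0. The median was then −0.72, which follows from the shift that loci without a gene name set. Among called genes this scaling also turned *Per2* (−0.27), *Cry1* (−0.13), *Bhlhe41* (−0.24), *Tspan4* (−0.34) and *Cdkn1a* (−0.31). Without *Per2* and *Clock*, an alternative chosen after seeing the data like the class of 1 to 5 FPKM, the median was −0.27.

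The shares of loci lower and higher by 1.2-fold were 22.2% and 18.7% without an FPKM minimum, 25.5% and 20.7% from 1 to 5 FPKM, 92.7% and 1.78% with equal sums over all loci, and 9.44% and 16.4% with equal sums over named loci. The difference between the arms was −0.0617 without *Arntl*, 0.54 without *Npas2* and 0.34 without *Per2*, each by the loss of that gene, and 0.14 with *Cry1* among the E-box-driven genes. With equal sums over named loci the lower genes fell from 6 to 2 of 8 for the glucocorticoid-responsive list and from 3 to 0 of 7 for the clock-controlled list, and from 3 to 2 when the latter was centred on the median of all loci.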
